A study of Mus musculus with 2 samples.

Results

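Molecular chaperones help other proteins fold, keep them from clumping and hand damaged ones on for repair or breakdown, and cochaperones steer that work. Members were taken by symbol from a mouse Affymetrix array: the Hsp70 and Hsp110 genes (Hspa, Hsph1), Hsp90 genes, the mitochondrial chaperonin pair Hspd1 and Hspe1, the cytosolic CCT chaperonin (Cct genes and Tcp1), the DnaJ families A, B and C, and the BAG genes. This gave 78 genes of the 18194 that had a probe set with 1 gene symbol. Lenses of untreated wild-type mice of the C57/BL6 strain were pooled by age, at postnatal day 7 (P7) or 60 (P60), and the RNA of each pool was run on 1 array. No value therefore has a replicate, no test between the ages is possible, and all differences below are sizes on these 2 arrays. The sources used here do not state the pool size, the sex or the hour of collection.

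Values are linear signal intensities, and ratios are log2 of P60 over P7, so a negative ratio is a lower value at P60. A gene counted as measured when its chosen probe set, the one with the highest mean log2 signal, exceeded a floor of 103.9 on at least 1 array, the median of all values. Smaller values were set to the floor for the ratio, and such a fold is a lower bound. Because probes differ in how well they bind, intensities of different genes are not set against each other. Between probe sets for 1 gene the ratio had an SD of 0.58 over 4239 genes and 0.57 over the 40 members with enough probe sets. It is the only error these data give, and it leaves out differences between animals, pools and arrays.

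The lens is a tissue in which this machinery is of long-standing interest, because fibre cells lose their nuclei and organelles and keep their proteins for life. The small heat-shock proteins of the crystallin type are the bulk chaperones there and do not use ATP. The genes described here encode mostly the ATP-driven machines and their helpers. Hsp70 binds short unfolded stretches, J proteins (the DnaJ families) bring substrates and trigger its ATPase, and Hsp110 and most BAG proteins release the nucleotide again. Hsp90 takes over late folding steps of kinases and receptors. The CCT ring encloses actin, tubulin and other newly made proteins.

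Some members carry letters of known stress-response elements upstream of the transcription start. RefSeq windows of 300 bases (250 before to 50 after the start, build GRCm38.p6) were at hand for 64 of the 78 members. The heat shock element, the binding pattern of heat shock factors, was searched on both strands as GAA, TTC and GAA in a row, each 2 bases apart (whichever bases these are). It occurred in 4 of 64 members (6.25%) and in 0.595% of 17492 protein-coding genes: Hspd1, Hspe1, Dnajb6 and Hsph1. The shorter pattern of GAA and TTC 2 bases apart, which lies inside the longer one, occurred in 13 members (20.3%) and in 8.44% of protein-coding genes. The opposite order, TTC and GAA 2 bases apart, occurred in 8 members (12.5%) and in 8.73% of protein-coding genes. The following 60-base stretches show these patterns, with the GAA and TTC units of such patterns in capitals. The Dnaja1 stretch comes from the first of its start sites in the table.
Hspe1, chr1:55088038-55088097, plus strand: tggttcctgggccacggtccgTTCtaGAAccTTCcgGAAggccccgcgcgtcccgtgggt
Dnajb6, chr5:29735823-29735882, plus strand: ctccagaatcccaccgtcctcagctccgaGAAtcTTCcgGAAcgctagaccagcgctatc
Hspa1a, chr17:34972227-34972286, minus strand: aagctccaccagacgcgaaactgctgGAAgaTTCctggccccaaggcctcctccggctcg
Hspa1b, chr17:34959309-34959368, minus strand: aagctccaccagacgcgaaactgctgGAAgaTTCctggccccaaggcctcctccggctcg
Dnaja1, chr4:40722318-40722377, plus strand: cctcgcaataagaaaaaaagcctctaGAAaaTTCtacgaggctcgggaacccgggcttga

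The Hspe1 stretch also belongs to Hspd1, which is read in the opposite direction. For the Hspd1 start site whose window overlaps most, the starts of the pair lie 216 bases apart and the windows share 285 bases. The 250 bases before the starts of Hspa1a and Hspa1b were identical at 247 positions. The coding sequences of this pair are near-copies too, so the array may not separate them. In Hsph1 the longer pattern lies after the start site.

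The ER stress response element, CCAAT and CCACG 9 bases apart on either strand, was found in 3 of 64 members (4.69%) and in 0.166% of protein-coding genes. It is the pattern read by factors of the unfolded protein response, the programme that raises chaperones of the endoplasmic reticulum (ER). The 3 members were Hspa5, Hsp90b1 and Dnajc3, all of them ER proteins, and in Hsp90b1 the copy shown lies on the other strand.
Hspa5, chr2:34772000-34772059, plus strand: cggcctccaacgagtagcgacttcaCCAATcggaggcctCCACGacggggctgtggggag
Hsp90b1, chr10:86705515-86705574, minus strand: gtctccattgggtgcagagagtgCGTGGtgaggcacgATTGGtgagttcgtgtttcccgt
Dnajc3, chr14:118937802-118937861, plus strand: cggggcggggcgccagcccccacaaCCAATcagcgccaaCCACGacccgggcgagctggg

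Among general promoter letters, the GC box GGGCGG stood in the windows of 49 of 64 members (76.6%) against 49.2% of protein-coding genes. The TATA box TATAAA stood in 1 member, Dnajc24 (1.56%), against 14.8%. The CCAAT box was near its general share, 43.8% against 42.3%. All 7 measured CCT genes with a window held a GC box and none held TATAAA or the longer heat shock pattern. These matches describe letters and say nothing of binding in the lens.

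Of the 78 members, 69 were measured. The other 9 were below the floor at both ages on their chosen probe sets: Hspa12a, Hspa12b, Hspa1l, Cct6b, Cct8l1, Dnajb7, Dnajb13, Dnajc5b and Dnajc5g. Another probe set of Hspa12a read 106 at P7. Several of these, such as Hspa1l, Cct6b and Dnajb13, are known mainly from testis. At P60, 7 of the 69 (10.1%) read higher by 2-fold or more and 5 (7.25%) lower. The same limits were passed by 11.5% of all 13029 measured genes upward and by 9.44% downward, so the members' shares were close to the background. At a limit of 1.5-fold, 17.4% of the members were higher and 17.4% lower, against 22.7% and 20.1% of all measured genes. Their median ratio was 0.04 and that of all measured genes 0.02. Class medians ran from -0.53 (CCT) to 0.54 (BAG), as the next paragraphs give. None of them reached in size the SD of 0.58 that single genes had between probe sets. Of the 12 genes past 2-fold, 7 rest on 1 measured probe set, and the nearest to the limit were Bag3 (1.06) and Cct8 (-1.09), just past it, and Cct3 (-0.97), just short of it.

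**Figure D1:**
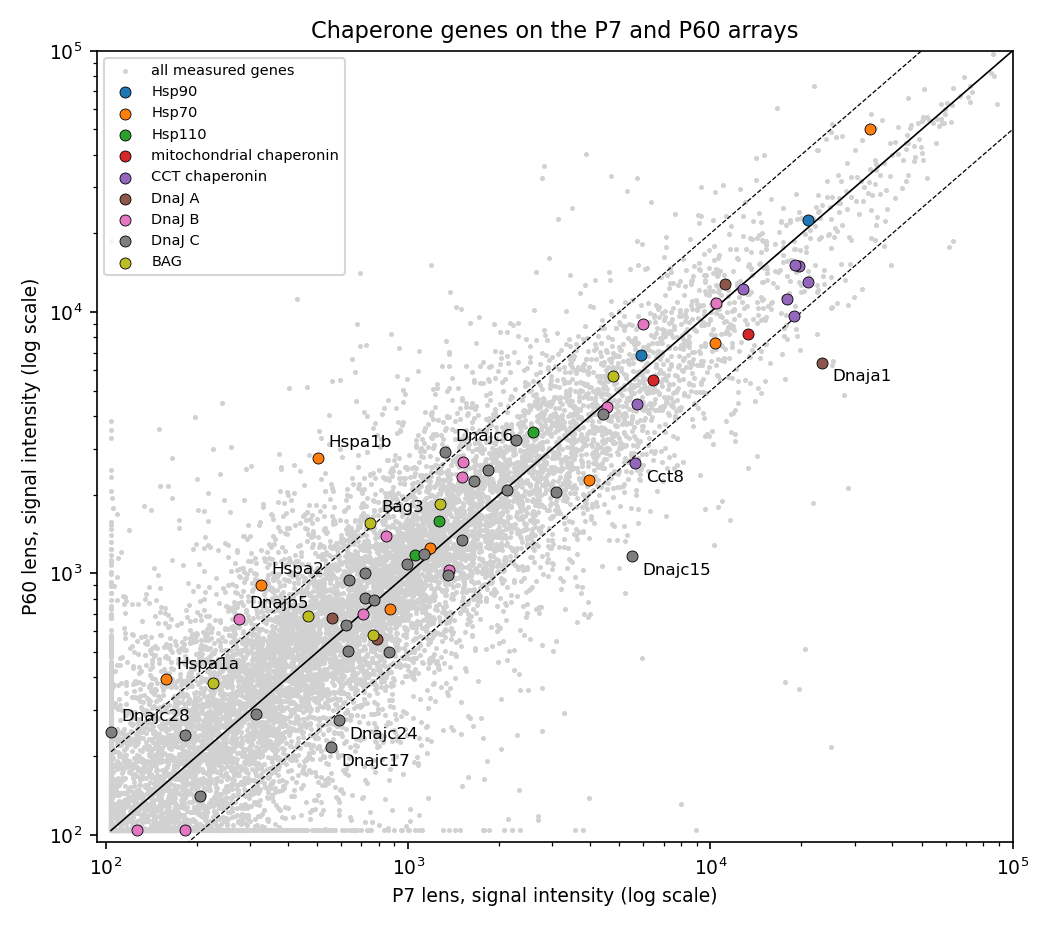
Signal intensity of each measured member on the P7 array (x axis) and the P60 array (y axis), both log scales, coloured by chaperone class over all measured genes in grey; the solid line marks equal values and the dashed lines 2-fold, and values under the floor of 103.9 are drawn at it. Most members lie between the dashed lines, Hspa1b lies farthest above them, and Dnajc15 and Dnaja1 lie farthest below.

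**Figure D2:**
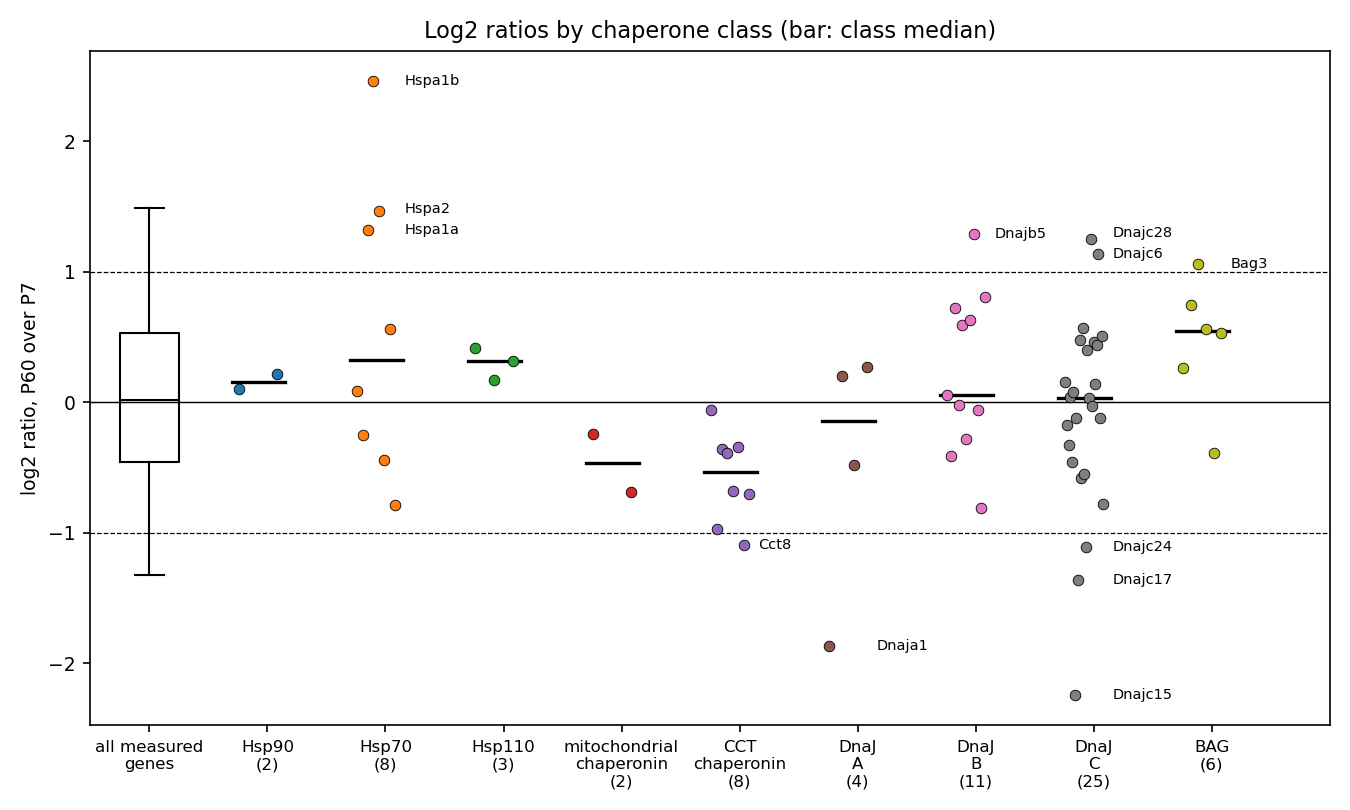
Log2 ratio of P60 over P7 (y axis) for each measured member by class, with the number of genes in brackets, class medians as bars, dashed lines at 2-fold, and a box for all measured genes (quartiles and median, whiskers at the 5th and 95th percentiles). All 8 measured CCT genes lie below 0, and 3 Hsp70 genes lie above 1.

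Among members above the floor on both arrays, the 3 with the highest ratios were Hsp70 genes. Hspa1b, the stress-inducible Hsp70, read 503 at P7 and 2774 at P60, 5.51-fold higher (ratio 2.46). Its other probe sets read 96.7 and 83.2 at P7 and 863 and 1278 at P60, with ratios of 3.05 and 3.62 that are bounds. The 3 probe sets thus all read higher at P60. Hspa1a, its near-identical neighbour, read 158 at P7 and 395 at P60 on its probe set, 2.50-fold higher. Hspa2, an Hsp70 best known from spermatogenesis, read 326 and 904, 2.77-fold higher, also on 1 probe set.

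The constitutive Hsp70 genes had ratios nearer 0. Hspa8, the housekeeping Hsc70 of the cytosol, read 33837 at P7 and 49997 at P60 (ratio 0.56). Its other measured probe sets gave 0.72, 0.43 and -0.27, the last of them on intensities of 167 and 138. Hspa5 (BiP), the Hsp70 of the ER, read 10344 and 7613 (ratio -0.44), but its other probe sets gave 0.29 and 0.91, so no direction is shared by its probe sets. Hspa9 (mortalin), the Hsp70 of mitochondria, read 3959 and 2282 (ratio -0.79), with others at -0.37 and 0.53. Hspa13, a small microsomal relative, read 1178 and 1250 (ratio 0.09) with its other probe sets between -1.28 and -0.60. The 3 probe sets of Hspa14, a ribosome-bound form, lay between -0.70 and -0.25, with -0.70 and -0.58 as bounds. The Hsp70 class had a median of 0.32 over 8 genes, with 5 above and 3 below 0.

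Hsp110 proteins, the nucleotide exchange factors of Hsp70, had small positive ratios. Hsph1, the heat-inducible form, read 1268 at P7 and 1585 at P60 (ratio 0.32, other probe set 0.56). Hspa4 read 2596 and 3476 (ratio 0.42) and Hspa4l 1052 and 1180 (ratio 0.17), each with other probe sets on both sides of 0. All 3 ratios are smaller than the SD of 0.58 between probe sets.

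The BAG genes, most of whose proteins bind the Hsp70 ATPase domain, included 5 of 6 members above 0, with a median of 0.54. Over all measured genes 51.2% were above 0. Bag3, which directs aggregated proteins to autophagy and is itself heat-inducible, read 750.3 at P7 and 1565 at P60, 2.09-fold higher. Bag2, an inhibitor of the ubiquitin ligase CHIP, read 226 and 381 (ratio 0.75). Bag4 (466 and 686) and Bag6 (1274 and 1839), the latter a guide for tail-anchored and mislocalised proteins, had ratios of 0.56 and 0.53, and Bag1 (4770 and 5695) had 0.26. Bag5 was the member below 0, at 763 and 581 (ratio -0.39). Bag4 had other probe sets at 0.16 and -0.97 (a bound), and the remaining BAG genes rest on 1 measured probe set each.

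The Hsp90 genes read nearly alike at both ages on their chosen probe sets, but their probe sets disagreed. Hsp90aa1, the inducible cytosolic form, read 21095 at P7 and 22551 at P60 (ratio 0.10). Its other measured probe sets read 14887 and 9355 (ratio -0.67) and 12343 and 3591 (ratio -1.78). Hsp90b1 (Grp94), the ER form, read 5871 and 6842 (ratio 0.22), while its other probe set read 5649 and 2318 (ratio -1.28). The sign of both genes thus depends on the probe set chosen, and the class median was -0.66 with the mean over all measured probe sets in place of 0.16. The constitutive cytosolic form Hsp90ab1 was not analysed here.

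On its chosen probe set, every measured subunit of the CCT chaperonin read lower at P60. All 8 had ratios below 0 (7 of 8 with the mean of all measured probe sets or after quantile normalization), from -1.09 to -0.06 with a median of -0.53, and 1 of them passed 2-fold. Over all measured genes 48.8% had a ratio below 0, and over the 1171 genes with a mean intensity of at least 4000, where 7 of the 8 lie, 51.2%. Cct8 read 5641 at P7 and 2648 at P60, 2.13-fold lower. Cct3 read 18960 and 9699, 1.95-fold lower, and its 5 measured probe sets lay between -2.08 and -0.65. Tcp1, the first CCT subunit to be described, read 21115 and 13024 (ratio -0.70). Cct6a read 17941 and 11191 (ratio -0.68, other probe set -0.62).

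The other CCT subunits had smaller differences. Cct5 read 19689 at P7 and 15066 at P60 (ratio -0.39), and Cct7 19102 and 15128 (ratio -0.34, other probe set -0.84). Cct4 read 5712 and 4462 (ratio -0.36), but its 6 measured probe sets reached up to 0.50. Cct2 read 12772 and 12212 (ratio -0.06), with its 3 probe sets between -0.41 and -0.06. Cct4 was thus the only subunit with probe sets on both sides of 0, and Cct5, Cct8 and Tcp1 rest on 1 measured probe set each. The subunits of a complex share the pools and arrays, so these 8 ratios are not independent replicates. The testis form Cct6b was under the floor.

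CCT works with helpers that were listed apart from the members. Of 20 measured genes for prefoldin subunits, CCT cofactors and tubulin-folding factors, 15 had ratios below 0, against 48.8% of all measured genes. The median of the list was -0.15, and Txndc9, Pdcl3 and Bbs12 (a bound) were each at -0.05. In this list 1 gene (5%) passed 2-fold in each direction, against 11.5% of all measured genes upward and 9.44% downward. The prefoldin gene Pfdn4 was lowest, at 1291 and 585 (2.21-fold lower), followed by Pfdn1 at 4815 and 2463. Pfdn2, another subunit of the same complex, was highest at 2539 and 6446 (2.54-fold higher), followed by Uri1 (ratio 0.88, with other probe sets down to -0.98). Prefoldin subunits thus lay far on either side of 0.

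Hspd1 (Hsp60) and Hspe1 (Hsp10) form the folding chamber of mitochondria and share the promoter printed above. Hspd1 read 6476 at P7 and 5476 at P60 (ratio -0.24), and Hspe1 13366 and 8264 (ratio -0.69, other probe set -0.37). Both read lower at P60 and neither reached 2-fold. Among all 8 members of mitochondria, 6 had ratios below 0, against 48.8% of all measured genes, and the median was -0.41.

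Among members above the floor on both arrays, a mitochondrial J protein had the lowest ratio. Dnajc15, a J protein of the inner membrane that works with the protein import motor, read 5510.5 at P7 and 1165 at P60, 4.73-fold lower on 1 probe set. Dnaja3 (Tid1), a matrix cochaperone of Hspa9, read 788 and 563 (ratio -0.48, other probe set -0.86). Dnajc11 read 634 and 503 (ratio -0.33), with other probe sets at 0.25 and 0.06. Dnajc30 read 1648 and 2262 (ratio 0.46). Dnajc28 read 91.0 at P7, below the floor, and 248 at P60, at least 2.38-fold higher. Of 11 other measured genes for mitochondrial chaperones and proteases none was 2-fold lower and 1 (9.09%) was 2-fold higher. This was the intermembrane protease gene Htra2 (431 and 1062). Over all measured genes 9.44% were 2-fold lower and 11.5% 2-fold higher. The median of the 11 was 0.14, with Clpx (ratio -0.63) and Timm44 (-0.48) lowest and Lonp1 (0.64) second highest.

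Members of the ER showed no common direction. All 10 were measured, 5 had ratios above and 5 below 0, the median was 0.03 and none reached 2-fold. Dnajb9 (ERdj4), a J protein strongly induced by ER stress, was highest at 1516 and 2660 (ratio 0.81). Dnajb12, a J protein of the ER membrane, read 842 and 1387 (ratio 0.72, other probe set -0.08), and its relative Dnajb14 707 and 697. Dnajb11 (ERdj3), a soluble partner of BiP, read 1369 and 1027 (ratio -0.41). Dnajc10 (ERdj5), a J protein with disulphide reductase activity, read 1511 and 1345, and its other probe sets gave -0.53 and -1.95. Dnajc1, a membrane J protein, read 721 and 804. The genes with the printed ER stress element gave -0.44 (Hspa5), 0.22 (Hsp90b1) and -0.03 (Dnajc3, 2129 and 2090, with its other probe sets from 0.14 to 0.83).

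Other genes of ER folding and the unfolded protein response were likewise on both sides of 0. Of 19 measured, 3 (15.8%) passed 2-fold upward and 1 (5.26%) downward, against 11.5% and 9.44% of all measured genes. The median of the list was 0.22. Herpud1, a component of ER-associated degradation, was highest at 1424 and 3283 (2.31-fold higher, its other probe set at 1.43). Derl3 read 33.9 at P7, below the floor, and 232 at P60, at least 2.24-fold higher. Atf4, the transcription factor of the integrated stress response, was lowest at 9530.2 and 3931 (2.42-fold lower, other probe set -1.03). The oxidoreductase gene Pdia6 followed (ratio -0.79, other probe set 0.27).

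Among the cytosolic J proteins of class A, Dnaja1 stood apart on its chosen probe set only. Dnaja1, a main partner of Hsc70, read 23431 at P7 and 6410.0 at P60, 3.66-fold lower. Its other probe sets read 5404 and 5361 (ratio -0.01) and 2263 and 2872 (ratio 0.34). The lower value of this gene is therefore not shared by its probe sets. Dnaja2 read 11145 and 12761 (ratio 0.20) and Dnaja4 561 and 675 (ratio 0.27), each with probe sets on both sides of 0. The class median was -0.14 over 4 genes.

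Class B of the J proteins had a median of 0.06 over 11 measured genes, of which 1 (9.09%) passed 2-fold upward and none downward. The shares over all measured genes were 11.5% and 9.44%. Dnajb5, a J protein reported in heart to tether class II histone deacetylases, read 275 at P7 and 671 at P60, 2.44-fold higher, with its other measured probe set at 0.57. Dnajb1 (Hsp40), the heat-inducible partner of Hsp70, read 10424 and 10872 (ratio 0.06), and its other probe set read 6985 and 12578 (ratio 0.85). Dnajb4 read 1505 and 2330 (ratio 0.63), with other probe sets at -0.50 (a bound) and -0.44. Dnajb2, a J protein with ubiquitin-interacting motifs, read 5975 and 9009 (ratio 0.59). Dnajb6, a suppressor of polyglutamine aggregation that carries the heat shock element printed above, read 4540.4 and 4352 (ratio -0.06), with other probe sets at -0.61 and -1.60. Dnajb3 (126 and 48.2) and Dnajb8 (182 and 18.2), both testis-enriched, read below the floor at P60, which makes them at least 1.22-fold and at least 1.75-fold lower.

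Class C holds proteins that share the J domain and little else, and its median was 0.03 over 25 measured genes. Of these, 2 (8%) passed 2-fold upward and 3 (12%) downward, against 11.5% and 9.44% of all measured genes. The 3 lower genes were Dnajc15, Dnajc17, a nuclear J protein linked to splicing, and Dnajc24, which serves diphthamide synthesis. Dnajc17 read 556 and 216, 2.57-fold lower, but its other probe sets gave 0.45 and 0.70 (a bound). Dnajc24 read 591 and 274, 2.16-fold lower, and its other probe set gave -0.95. Dnajc6 (auxilin), which uncoats clathrin vesicles, read 1321 and 2921, 2.21-fold higher on its 1 measured probe set. Dnajc5 (cysteine string protein), a vesicle chaperone, read 1836 and 2493 (ratio 0.44), with its 5 probe sets between -0.51 and 0.44.

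The remaining class C members stayed within 2-fold, from -0.78 to 0.57. The lowest of them was Dnajc9, a histone chaperone, at 861 and 501. Dnajc2, a J protein of the ribosome-associated complex, read 3074 and 2055 (ratio -0.58), and its 3 probe sets lay between -0.75 and -0.21. The highest was Dnajc21, a factor of ribosome maturation, at 636 and 947 (ratio 0.57, other probe set -0.07). Dnajc8, another J protein linked to splicing, read 2281 and 3247 (ratio 0.51, other probe set -0.12). Dnajc7, a tetratricopeptide protein that binds both Hsp70 and Hsp90, read 4417 and 4076 (ratio -0.12).

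**Figure D3:**
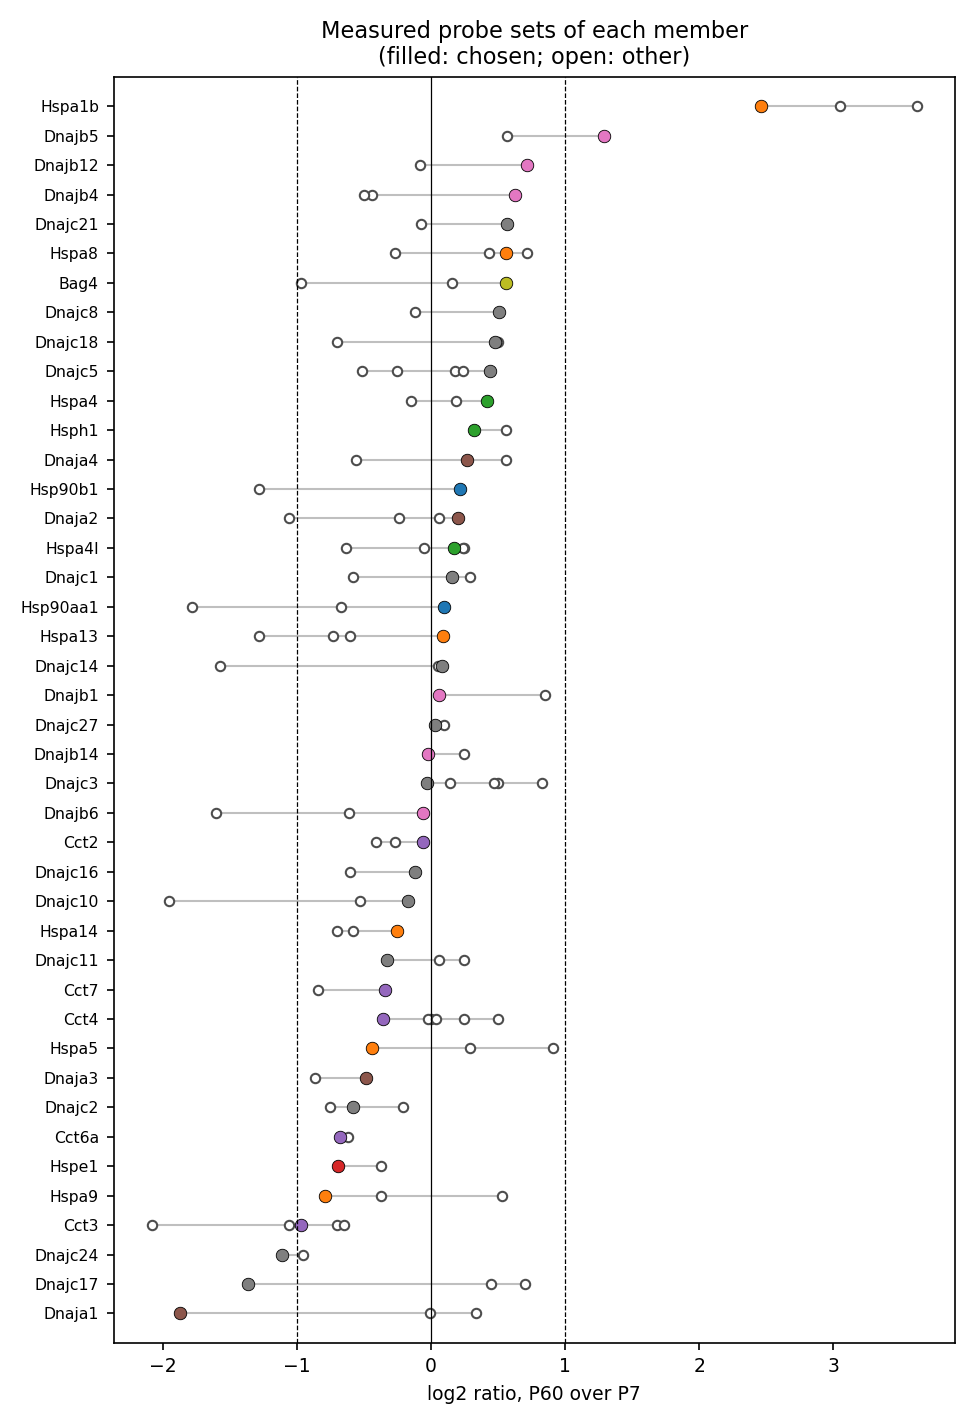
Log2 ratio of P60 over P7 (x axis) for every measured probe set of the 42 members that have at least 2 of them, 1 member per line; filled points are the chosen probe sets, coloured by class as in the scatter of intensities, open points are the others, and dashed lines mark 2-fold. In 17 of the 42 all probe sets lie on 1 side of 0, among them Hspa1b, Cct3, Cct6a and Dnajc24, whereas Dnaja1 and Dnajc17 have their other probe sets near or above 0.

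Read by inducibility, 6 cytosolic members known as heat shock genes (Hspa1a, Hspa1b, Hsph1, Hsp90aa1, Dnajb1 and Bag3) all had ratios above 0, and 3 of them at least 2-fold, with a median of 0.69. Over all measured genes 51.2% were above 0 and 11.5% at least 2-fold higher. The 6 were grouped with earlier results of these data known, so their shared sign is no test of heat shock genes. The 3 past 2-fold were Bag3 and the near-copies Hspa1a and Hspa1b, which the array may not separate. The other 3 were at 0.32 or below on their chosen probe sets, and Hsp90aa1 was below 0 on its others. Of the 11 measured carriers of the shorter heat shock pattern, 6 had ratios above and 5 below 0, with a median of 0.03. Of these carriers, Bag3, Hspa1a, Hspa1b and Hsph1 were in the group of heat shock genes. Those outside it were Dnaja1 (-1.87 on its chosen probe set), Hspe1 (-0.69), Hspd1 (-0.24), Cct2 (-0.06), Dnajb6 (-0.06), Dnajc27 (0.03) and Dnaja4 (0.27). A list of further genes taken as targets of heat shock factors had a median near that of all genes: over 11 it was 0.05, none was 2-fold higher and Ahsa1 was 2-fold lower. Ahsa1, an activator of the Hsp90 ATPase, read 8732 and 3651 (ratio -1.26, other probe set -1.78), and Chordc1, another Hsp90 partner, 3413 and 2168. Hspb8, a small heat-shock protein that works with Bag3, was highest at 258 and 445 (ratio 0.79), followed by Tcp11l2 (0.74).

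Immediate early genes, which also respond within minutes to handling of tissue, mostly read higher at P60. Of 14, 11 had ratios above 0, 2 were at least 2-fold higher and none was 2-fold lower, with a median of 0.42. Over all measured genes 51.2% were above 0 and 11.5% at least 2-fold higher. Egr2, Atf3, Fosb and Nr4a1 exceeded the floor at P60 only, so their ratios are bounds that could only lie above 0. Fos read 142 and 400 (ratio 1.49) and Egr1 251 and 510 (ratio 1.02), while Zfp36 was lowest (-0.93), followed by Dusp1 (-0.37). Their part in the values of Hspa1a, Hspa1b and Bag3 was not tested.

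The remaining cochaperones lay on both sides of 0. Of 21 measured partners of Hsp90, 3 (14.3%) passed 2-fold upward and 2 (9.52%) downward, with a median of 0.28. The shares over all measured genes were close, at 11.5% and 9.44%. Cdc37l1 (527 and 1476, with other probe sets down to -0.30) and Nudc (5410 and 14604, other probe set 1.09) were highest, and Flcn (1172 and 455, other probe set 0.28) and Ahsa1 lowest. Stip1 (Hop), which links Hsp70 to Hsp90, read 1958 and 3199, and the kinase adaptor Cdc37 2776 and 4144. Of 11 partners of Hsp70 none passed 2-fold, with a median of -0.12. Among these Hyou1, an ER exchange factor, was highest (760.4 and 1485) and Sec63 followed (ratio 0.56), while the exchange factor gene Hspbp1 was lowest (795 and 428) and Grpel1, that of mitochondria, followed (2468 and 1708).

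**Figure D4:**
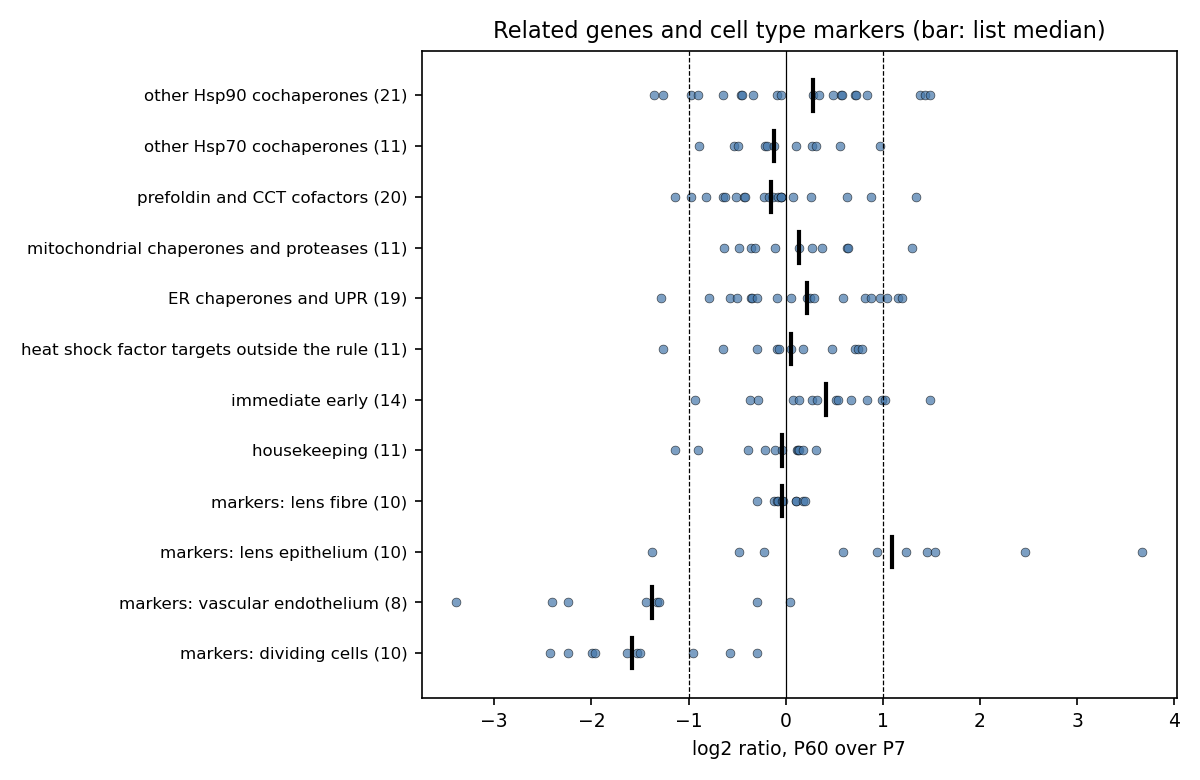
Log2 ratio of P60 over P7 (x axis) for the measured genes of related lists and of cell type markers, 1 list per line with its number of measured genes and its median as a bar; dashed lines mark 2-fold. Lists of chaperone partners lie around 0, lens epithelium markers mostly above it, and markers of dividing cells below it. Those of vascular endothelium lie mostly below 0, most of them as bounds.

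The 2 pools also differed in markers of their cells, and in bulk RNA fewer cells of a type and less RNA per cell cannot be told apart. Fibre markers were nearly level on their chosen probe sets (10 measured, none past 2-fold, median -0.03, summed intensity 515149 at P7 and 514711 at P60). Another probe set of Gja3 gave -1.30. Of 10 epithelial markers 5 were at least 2-fold higher and 1, Foxe3, lower (median 1.09, sums 40636 and 77220), with Gpx3 (ratio 3.67) and Aqp1 (2.46) highest. Of 10 markers of dividing cells 7 were at least 2-fold lower and none higher (median -1.58, sums 5729 and 1756). Among 8 measured vascular markers, 6 read lower by 2-fold or more (median -1.38, sums 3545 and 750.2), and 8 of the 10 named were not above the floor at P60. Erythroid, leukocyte, retinal, pigment and muscle markers summed to between 117 and 3540.0 per list and array, and those of cornea to 756 and 19558 through Aldh3a1. Single genes of these lists passed 2-fold: lower were the retinal Pdc (-2.15) and Nrl (-1.70) and the pigment genes Tyrp1 (-2.07) and Pmel (-1.11). Higher were the retinal Gnat1 (2.92, a bound), the pigment gene Oca2 (3.11), the leukocyte gene Cd74 (1.55) and the muscle gene Actn3 (1.04). The ratio of 5′ to 3′ signal was 0.785 and 0.606 for beta-actin and 1.39 and 1.29 for Gapdh. Housekeeping genes had a median of -0.04 over 11, with Tbp (-1.14) and Gusb (-0.90) lowest and Sdha (0.31) and Pgk1 (0.18) highest. The part of these differences in the chaperone values was not tested. This includes the lower CCT, the mostly higher BAG and the higher Hspa1a, Hspa1b and Hspa2 readings.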

How the data were processed

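The authors deposited 1 linear signal intensity per probe set and array, made with MAS5 per the submitters' processing notes. MAS5 weighs perfect-match against mismatch probes and scales each array. After trimming 2% of probe sets at either end, the mean was 500.0 on both arrays, so shifts of all transcripts cannot be seen. The sources used here give neither detection calls nor software settings. Of 45101 probe sets, 34958 had 1 gene symbol in the platform annotation, 932 several and 9211 none. All 78 members matched a current RefSeq gene by number. Another 3 probe sets matched the symbol rule through several symbols and were left out. Genes named are every measured member of the smaller classes, and of the DnaJ classes those past 2-fold, those of organelles and the best known forms. Other lists are named by their highest and lowest 2 genes, and a few well-known members were added after their values were seen. Members, lists, compartments and motifs were chosen with earlier results of these data known. Counts were made in Python 3.11.15 with pandas 2.3.3 and tested on simulated data. The number of arrays limits the precision. Alternatives were other probe sets, floors, scalings and fold limits.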

Additional observations from a re-analysis of the deposited data

How the results depend on the processing

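No paired analysis was possible because each age has 1 array. With the dimmest probe set of each gene (51 members measured) 4 members were at least 2-fold higher, and the median of the members was -0.24. Medians were then 0.91 for Hsp70, -1.28 for Hsp90 (1 gene), -0.03 for Hsp110, -0.56 for DnaJ A and -0.12 for DnaJ C. The CCT genes below 0 were 5 of 5, and Dnaja1 (0.34) and Dnajc17 (0.70, a bound) turned to the higher side. With the mean of all measured probe sets the members' median was -0.06 and that of Hsp90 -0.66. With a floor at 0.5 times the main one the Hsp70 median was 0.02, over 10 genes in place of 8. With a floor 2 times as high, or with genes above the floor on both arrays only, the DnaJ B median was 0.59. It then covered 9 genes in place of 11, without Dnajb3 and Dnajb8. At a 1.5-fold limit 12 members were higher and 12 lower (22.7% and 20.1% of all genes). CCT genes below 0 were 7 of 8 with the mean of probe sets and with quantile normalization, and 8 of 9 with the lower floor. Apart from these changes in the genes counted, the cause of the shifts was not tested. The CCT median stayed between -0.62 and -0.39 and the BAG median between 0.39 and 0.54 under 9 alternatives. Of the 12 members past 2-fold, 10 kept their sign under every alternative that measured them. By rounded ratios, 6 fell short of 2-fold under at least 1. These were Hspa1a (0.93) and Dnajc28 (0.25) with the higher floor, Dnaja1 (-0.51), Dnajc17 (-0.07) and Dnajb5 (0.93) with the mean of probe sets, Dnajb5 (0.57) and Dnajc24 (-0.95) without _x_at and _s_at probe sets, and Dnaja1, Dnajc17 and Dnajc24 with the dimmest probe sets. Bag3 also fell just short with quantile normalization, at a ratio that rounds to 1, and 6 members were then counted as 2-fold higher. The counts of CCT genes below 0 and the values of single genes were added to the alternatives after seeing the data.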
